A study of Homo sapiens with 3 samples.

Results

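The host genes of 4 microRNAs, miR-21, miR-22, miR-31 and miR-155, were examined in a list of N6-methyladenosine (m6A) regions that were mapped in the nuclear RNA of a human breast cancer line, MDA-MB-231. The members are the listed regions whose midpoint lies in 1 of 4 loci set in hg19: VMP1 with MIR21, MIR22HG, MIR31HG and MIR155HG. There were 17 such regions among the 41836 of the list. VMP1 and MIR21 held 11, MIR22HG held 6, and MIR31HG and MIR155HG held 0. Nuclear RNA had been captured with a rabbit antibody against m6A in 2 libraries and with rabbit IgG as control in 1 library, all from untreated cells of the same line as far as the labels state. The list is a single one for the series, with names that contain the word merged, and gives a position and a strand for each region. No read count, enrichment over IgG or value of a single library was at hand, so no value below has a replicate error and no test between the m6A and IgG libraries was possible. The identity of the cells could not be checked against marker genes for the same reason.

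MicroRNAs are cut from long primary transcripts in the nucleus. The Microprocessor, formed by DROSHA and DGCR8, releases a hairpin from the primary transcript, and DICER later trims it to the mature microRNA. The METTL3 and METTL14 complex places m6A on nuclear RNA, mostly within a short motif around GGAC, and the question put to such a list is which nuclear RNAs, primary microRNA transcripts among them, carry the mark. miR-21 is an abundant microRNA of many tumours and represses the tumour suppressor PDCD4. miR-31 is known as a suppressor of breast cancer metastasis, and miR-155 acts in B cells, T cells and macrophages and is raised in several cancers.

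The mature sequences at hand for these hosts are shown with the seed, bases 2 to 8, in capitals. For miR-21 and miR-31 only the 5p arm was at hand. The seed is the part that pairs with target messages. The sequences are those of RefSeq on GRCh38.p14, in 5′ to 3′ direction.
hsa-miR-21-5p: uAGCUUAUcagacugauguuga
hsa-miR-22-3p: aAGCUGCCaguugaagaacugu
hsa-miR-22-5p: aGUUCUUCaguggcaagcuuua
hsa-miR-31-5p: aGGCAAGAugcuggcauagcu
hsa-miR-155-5p: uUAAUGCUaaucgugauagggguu
hsa-miR-155-3p: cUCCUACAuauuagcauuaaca
No seed was shared among these 6 sequences. In the whole table of 2370 mature names, only the miR-21-5p seed recurred, in hsa-miR-590-5p.

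The hairpins of miR-21 and miR-31, one from a locus with m6A regions and one from a locus without, are shown with the 5p arm in capitals.
MIR21 hairpin: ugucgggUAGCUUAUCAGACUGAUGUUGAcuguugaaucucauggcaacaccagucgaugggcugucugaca
MIR31 hairpin: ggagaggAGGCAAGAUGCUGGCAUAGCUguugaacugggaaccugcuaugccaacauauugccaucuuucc
The motif GGAC, read on the RNA strand, occurred in neither of these 2 hairpins. The hairpins of miR-22 and miR-155 were not among the sequences at hand and were not searched. The motif occurred in 427 of the 1562 human hairpins of the table (27.3%). These letters were therefore missing from both hairpins, which leaves the RNA on either side of them undescribed.

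At VMP1 and MIR21, m6A regions gathered at the 3′ end of the locus, where the microRNA also lies. VMP1 codes for a membrane protein of the endoplasmic reticulum that is needed to form autophagosomes, and the miR-21 hairpin lies at its 3′ end. The locus ran over 138 kb of the plus strand of chromosome 17, from 57784 to 57922 kb, and held 10 regions on the gene strand and 1 against it. Of these 10, 8 formed a single chain of 5.25 kb that covered 3.80% of the length of the locus. The other 2 were spread over the 131 kb before it. Chains are here runs of regions on the same strand with gaps of at most 10 kb. The chain of 8 is called the MIR21 chain below, for its place only. The VMP1 message and the primary transcript of miR-21 share a strand. Position and strand therefore do not tell to which of them the regions of this chain belong. In GENCODE release 29, on GRCh38, the miR-21 hairpin spans 59841266 to 59841337 on chromosome 17 and lies in an exon of 1 of the 17 VMP1 transcripts, VMP1-216, which retains introns.

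The first of the scattered VMP1 regions lay from 57808798 to 57808842, 24.8 kb from the 5′ limit of the locus, and was 45 nt wide. The second lay from 57842407 to 57842445, 58.41 kb from the 5′ limit, and was 39 nt wide. The next region on the gene strand followed only after a gap of 72.9 kb. Both stood alone, with no neighbour on their strand within 10 kb, as did 21.9% of the regions of the whole list.

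Of the 8 regions of the MIR21 chain, 6 lay upstream of the hairpin and 2 downstream. The hairpin stands at 57918.6 kb in hg19, a position given to the nearest 0.1 kb, so distances to it carry that error. The first region of the chain, 74 nt wide, lay from 57915385 to 57915458 and ended 3.1 kb upstream of the hairpin. The next, of 38 nt, lay from 57915714 to 57915751 and ended 2.8 kb upstream. These were followed by regions of 51 nt from 57916253 to 57916303 and of 27 nt from 57916691 to 57916717, which ended 2.3 and 1.9 kb upstream. The pair nearest to the hairpin on its upstream side was also the closest pair of the chain. A region of 47 nt from 57917557 to 57917603 and one of 92 nt from 57917748 to 57917839 were 144 nt apart, and the second ended 0.8 kb upstream of the hairpin. It was the widest region of the locus, and 12.0% of all listed regions were at least as wide.

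Downstream of the hairpin, a region of 19 nt lay from 57919554 to 57919572, starting 1.0 kb away. After rounding, 100% of the listed regions were at least as wide, so it was among the narrowest of the list. The last region of the chain, of 39 nt, lay from 57920596 to 57920634, starting 2.0 kb downstream and 1.37 kb before the 3′ limit of the locus. That limit is not the annotated end of the gene. In GENCODE, on GRCh38, VMP1 ends 0.918 kb after the hairpin. The last region thus started farther from the hairpin than that end, though no coordinate was converted. No listed region covered the hairpin position. The hairpin fell in the widest gap of the chain, of 1714 nt, against a median of 501 nt over the gaps of the chain and 1023 nt for the next widest. After the last region, the gene strand held no further region for 49985 nt.

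The single m6A region against the gene strand of VMP1 and MIR21 was inside the chain. It lay from 57917210 to 57917244 on the minus strand, was 35 nt wide, and ended 1.4 kb upstream of the hairpin. It stood between the fourth and the fifth region of the chain and overlapped none of them. On chromosome 17, 37.5% of windows of 138 kb held a region on the minus strand, so a count of 1 against the gene strand is common at this length. That share does not describe its place inside the chain. Of windows of 6 kb, closer to the length of the chain, 5.18% held a region on the minus strand, stretches without genes included.

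**Figure D1:**
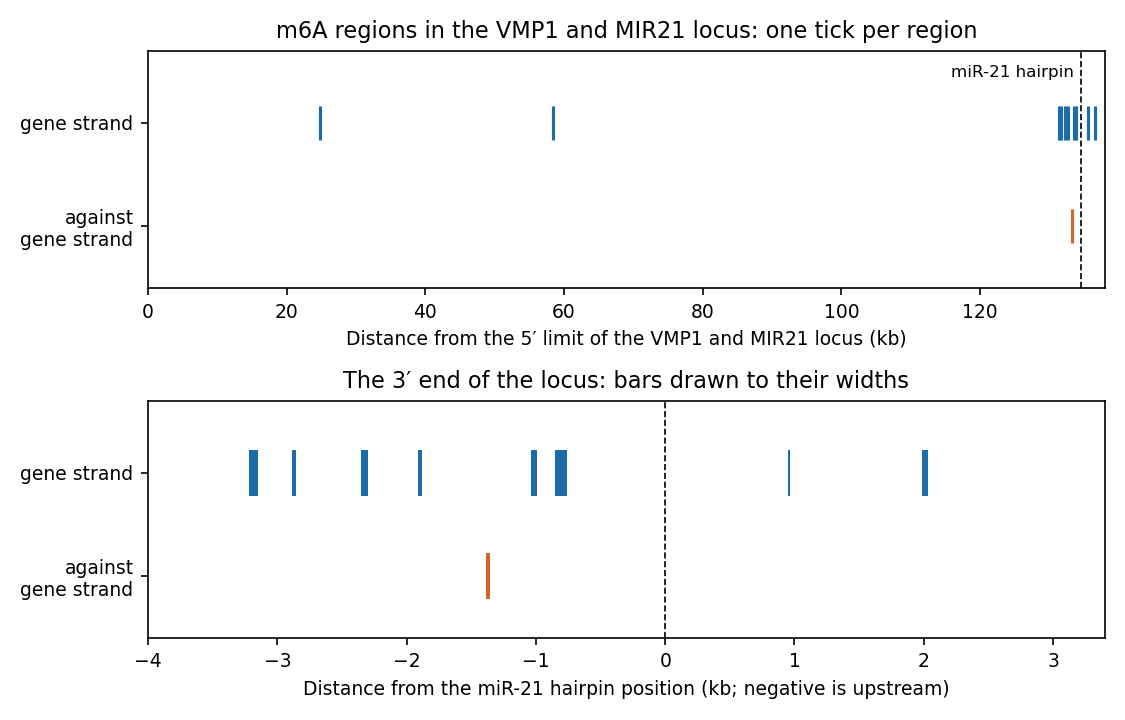
Positions of the 11 m6A regions of the VMP1 and MIR21 locus on the gene strand (blue) and against it (orange). The upper panel gives the distance from the 5′ limit in kb over the 138 kb of the locus, 1 tick per region; the lower panel gives the distance from the miR-21 hairpin (dashed line) in kb with bars drawn to their widths. The 8 chained regions sit at the 3′ end, 6 before and 2 after the hairpin, with 2 scattered regions far upstream.

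The count at VMP1 and MIR21 was set against all windows of the same length. Windows of 138 kb were tiled along the plus strand of chromosome 17, up to its last region. Of 586 windows, 33.8% held at least 1 region and 3.58% (21 windows) held at least 10, with a mean of 1.46 regions per window. The 10 regions of the locus were thus 6.85 times that mean, and few windows held as many. The windows include stretches without genes, so the share says where the locus stands in the list and is not a test.

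The surroundings of VMP1 and MIR21 differed by side. The stretch of 138 kb upstream held 12 regions on the gene strand and 3 against it, and the stretch of 138 kb downstream held 1 on each strand. The region nearest to the 5′ limit was on the opposite strand and lay just outside, from 57783915 to 57783950, ending 50 nt before the limit. Its midpoint kept it out of the locus. In the same annotation, the gene that overlaps the start of VMP1 on the opposite strand is PTRH2, which codes for a mitochondrial peptidyl-tRNA hydrolase, but no hg19 gene model was used here and the region was assigned to no gene.

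At MIR22HG, a short noncoding host gene, m6A regions were dense and all on the gene strand. miR-22 has been described with both growth-limiting and growth-promoting roles, depending on the tissue. The locus ran over 6 kb of the minus strand of chromosome 17, from 1614 to 1620 kb, and held 6 regions on the gene strand and 0 against it. On the plus strand of chromosome 17, 3.88% of windows of 6 kb held a region, so 0 against the gene strand is the usual value at this length. The 6 regions covered 399 nt, or 6.65% of the locus, against 0.341% of the VMP1 and MIR21 locus. GENCODE places the miR-22 hairpin on GRCh38 from 1713903 to 1713987 of chromosome 17, 3.19 kb from the start of MIR22HG, in an exon of each of its 19 transcripts. The place of this hairpin in hg19 was not used here. The 3.19 kb run from the annotated gene start, whereas the distances below run from the 5′ limit of the locus. The hairpin therefore cannot be placed among the regions. Read in the direction of the gene, the first 2.85 kb from the 5′ limit held no region.

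The first m6A region of MIR22HG in the direction of transcription was also the widest member of any of the 4 loci. It was 167 nt wide, lay from 1616988 to 1617154, and 3.23% of all listed regions were at least as wide. A region of 29 nt, from 1616501 to 1616529, came next, 3.47 kb from the 5′ limit. A region of 86 nt, from 1616145 to 1616230, and a region of 20 nt, from 1616022 to 1616041, followed with 103 nt between them. That gap is close to the smallest gap of the whole list on 1 strand, which was 101 nt. The fifth region, of 69 nt, lay from 1615578 to 1615646, 4.35 kb from the 5′ limit.

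These 5 regions of MIR22HG spanned 1.58 kb and covered 23.5% of it, with gaps of 103 to 458 nt. The sixth region of MIR22HG stood apart, 1561 nt further on. It was 28 nt wide, lay from 1613989 to 1614016 across the 3′ limit, and its midpoint was just inside. The nearest region outside that limit was on the same strand, from 1608634 to 1608713, was 80 nt wide, and ended 5.3 kb away. With it the chain of MIR22HG numbered 7 regions. As whole chains, that of MIR22HG covered 5.62% of 8.52 kb, with 0.821 regions per kb, and that of MIR21 covered 7.37% of 5.25 kb, with 1.52 regions per kb. In GENCODE the next gene on that side is TLCD2, on the same strand as MIR22HG, so the strand alone does not tell to which transcript the 2 regions at this end belong. On the other side, the nearest region lay 62.1 kb away.

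**Figure D2:**
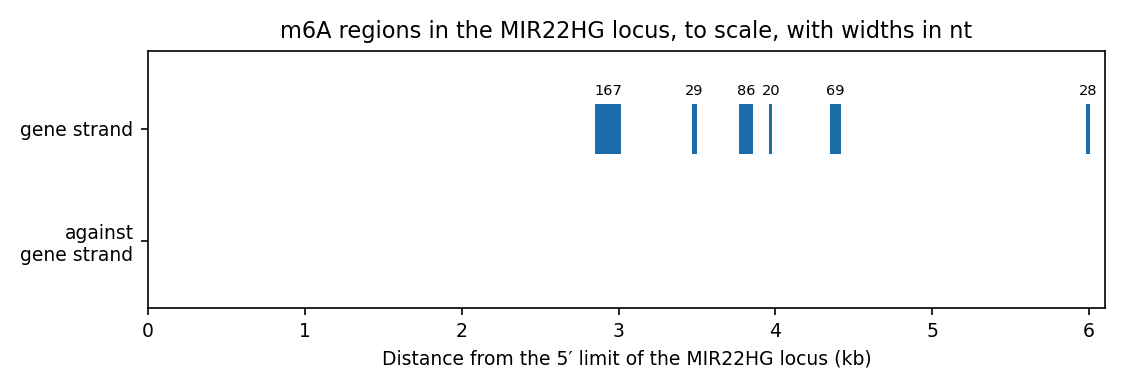
The 6 m6A regions of the MIR22HG locus on the gene strand, drawn to scale against the distance from the 5′ limit in kb, with their widths in nt; none lies against the gene strand. The first 2.85 kb are empty, 5 regions follow within 1.58 kb, and the sixth lies across the 3′ limit.

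Few stretches of chromosome 17 held as many m6A regions as MIR22HG. Of 13483 windows of 6 kb on the minus strand, 5.18% held at least 1 region and 0.104% (14 windows) held at least 6. The mean was 0.086 regions per window, and the 6 regions of the locus, with the one across the 3′ limit counted, were 69.8 times that mean. These windows include stretches without genes, and the share is not a test. Among windows with a region on either strand, 1.18% held at least 6 on the gene strand. Over both strands of all chromosomes, 2.52% of windows of 6 kb held at least 1 region and 0.0467% held at least 6. Chains as large as those of MIR21 and MIR22HG made up a larger share of all chains. Of the 16073 chains of the list, 5.90% held 8 or more regions, like the MIR21 chain, and 7.34% held 7 or more, like the MIR22HG chain. Chains of 7 or more held 36.8% of all listed regions.

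MIR31HG had no m6A region on either strand. The gene makes a long noncoding RNA. In GENCODE, on GRCh38, the miR-31 hairpin lies in an intron of its 1 transcript, from 21512115 to 21512185 on chromosome 9. The locus ran over 106 kb of the minus strand of chromosome 9, from 21454 to 21560 kb. Of 1331 windows of 106 kb on that strand, 20.3% held at least 1 region, and on either strand 31.9% did. An empty window of this length was therefore the common case on chromosome 9, stretches without genes included.

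The empty stretch around MIR31HG was much longer than the locus. The nearest regions on either strand were 1 of 25 nt from 20831502 to 20831526, 622.5 kb below the locus, and 1 of 79 nt from 22747847 to 22747925, 1187.8 kb above it. Both were on the plus strand, against the strand of MIR31HG. The stretch of 1.92 Mb between them held no region at all. Of 41812 gaps between neighbouring regions of the list on either strand, 206 (0.493%) were at least as long, 8 of them on chromosome 9 with that of MIR31HG counted. The median gap on chromosome 9 was 4.28 kb. In GENCODE, MIR31HG encloses a second gene on the same strand, IFNE, which codes for a type I interferon. Further type I interferon genes lie on one side of MIR31HG, and MTAP, followed by CDKN2A, on the other.

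MIR155HG, also known as BIC, had no m6A region on either strand. This noncoding gene carries the miR-155 hairpin in an exon, 1.12 kb from its 3′ end, from 25573980 to 25574044 on chromosome 21 of GRCh38 in GENCODE. The locus ran over 14 kb of the plus strand of chromosome 21, from 26934 to 26948 kb. Of 3433 windows of 14 kb on that strand, 3.18% held at least 1 region, and on either strand 6.18% did. A window of this length without a region was thus the rule on chromosome 21, stretches without genes included.

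The nearest regions to MIR155HG were on the minus strand, against the strand of the gene. A region of 28 nt lay from 26433761 to 26433788, 500.2 kb below the locus, and a region of 266 nt lay from 27252934 to 27253199, 304.9 kb above it. The 0.819 Mb between them held no region, and 1.93% of the gaps of the list were at least as long. Within 1 Mb of the MIR155HG locus the list held 0 regions on the gene strand and 18 against it. Within 1 Mb of the MIR31HG locus it held 1 on the gene strand and 4 against it. Absence from a list without read counts does not tell an RNA without m6A from an RNA that was not expressed or not sequenced deeply enough, and the level of these RNAs was not measured here. Whether the DNA of the MIR31HG and MIR155HG loci is intact in the line was not tested.

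**Figure D3:**
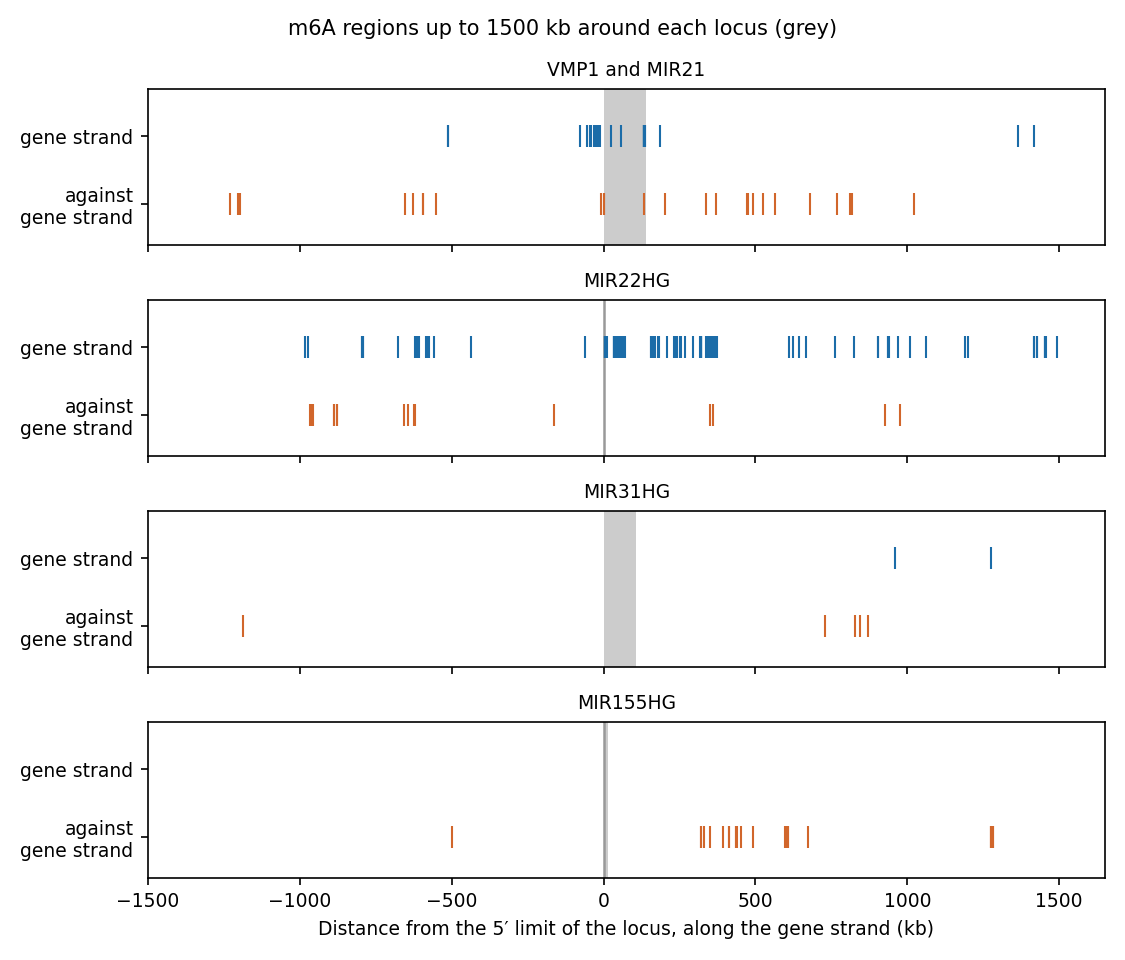
All m6A regions up to 1500 kb on each side of the 4 loci (grey), on the gene strand (blue) or against it (orange), by distance from the 5′ limit in kb along the gene strand. VMP1 and MIR21 and MIR22HG have regions inside and close by, whereas MIR31HG and MIR155HG stand in stretches of 1.92 and 0.819 Mb without a region.

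Over the 4 loci, 2 held m6A regions on the gene strand and 2 held none. Of the 17 regions, 16 (94.1%) were on the gene strand of their locus. On chromosome 17 as a whole, the plus strand of VMP1 held 42.4% of regions and the minus strand of MIR22HG 57.6%. Both of these count regions by strand of the chromosome, whatever the strand of their own gene. They are therefore no background for the 94.1%. Regions of 1 locus are not independent, since they can come from the same transcript, and only 2 loci stand behind the 94.1%. The 17 regions had a median width of 39 nt, against 45 nt in the whole list. The 16 on the gene strand had a median width of 42 nt. Of these 16, 1 was over 100 nt wide, against 10.3% of the list, and 5 were under 30 nt wide, against 19.9%. Counts this small do not set the widths of the members apart from the list. None had the most frequent width of the list, 49 nt.

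**Figure D4:**
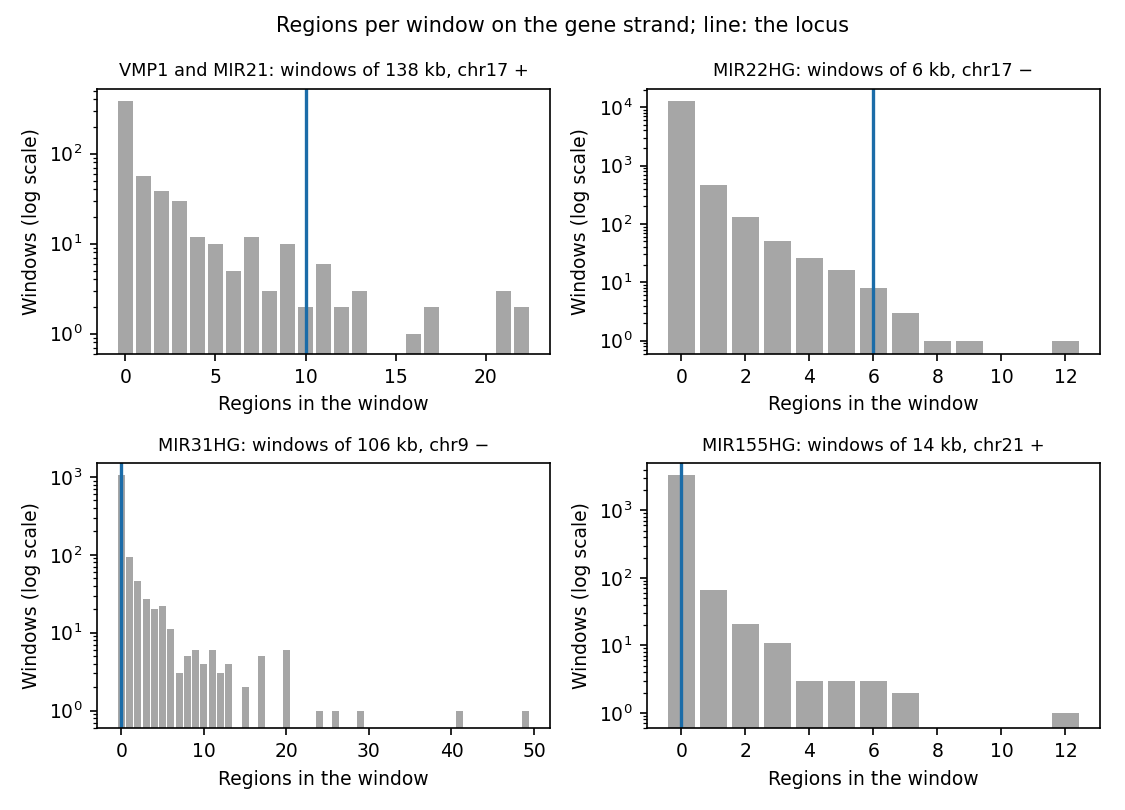
Number of windows (log scale) by the number of m6A regions they hold, for windows of the length of each locus on its gene strand and chromosome, with the locus as a line. The line stands at 10 for VMP1 and MIR21 and at 6 for MIR22HG, in the thin tails, and at 0 for MIR31HG and MIR155HG, where most windows fall.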

How the data were processed

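The series holds 3 libraries of nuclear RNA (m6A, 2; IgG, 1). The submitters' processing notes name Bowtie2, an aligner, and hg19; how regions were called and libraries merged is not given in the sources used here. What was analysed is 1 list by the authors of region starts and ends, whose score, as deposited, is 1 for every region and was not used. It has 0 columns for single libraries, so depth is unknown. Loci were taken as limits in kb. A region was counted by its midpoint, windows were tiled from the first base to the last region of a chromosome, and positions count from 1. Members, loci and analyses were chosen with earlier results of these data known, and all regions of the 4 loci are named. Counting was tested on simulated regions. GENCODE release 29 and RefSeq sequences are on GRCh38 and gave names, gene order and sequences; no coordinate was converted. Alternatives changed the overlap, limits, widths, merging, joining distance, windows and motif. Scripts ran in Python 3.11.15 with pandas 2.3.3, numpy 2.4.6, matplotlib 3.10.9 and scipy 1.17.1.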

Additional observations from a re-analysis of the deposited data

How the results depend on the processing

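The counts of regions were within 1.5 times their values in 21 of 25 comparisons, each of 1 count under 1 alternative setting. Many of these comparisons could not move, so the tally does not measure stability. No region of the loci had the most frequent width, 49 nt, and none touched or overlapped another. The counts of MIR31HG and MIR155HG were 0 throughout, with the nearest regions 622.5 and 304.9 kb away. Of 18 such comparisons for shares of windows, 11 lay outside the 95% interval of the main share. Against the gene strand, 3 regions were counted with limits widened by 5 kb. Where only regions over the median width entered, every count above 0 moved. Then 0 regions lay against the gene strand, against 1 in the main setting. On the gene strand, VMP1 and MIR21 held 4, against 10, and MIR22HG held 3, against 6. With a joining distance of 50 kb the largest chains grew to 14 regions at VMP1 and MIR21 and 32 at MIR22HG. Over all chromosomes and both strands, at least 1 region was held by 21.5% of windows of the length of VMP1 and MIR21, 2.52% for MIR22HG, 18.0% for MIR31HG and 4.64% for MIR155HG, and at least 6 by 0.0467% for MIR22HG. Among windows with a region on either strand, these shares were 61.7%, 58.6%, 63.5% and 51.4%, with 6.54% holding at least 10 for VMP1 and MIR21 and 1.18% at least 6 for MIR22HG; fewer windows enter by construction. The settings without 1 m6A library were not run, since values per library are lacking. No paired analysis was possible because no column carries a replicate. Depth and enrichment over IgG remain unknown.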

Other observations

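The motif GGAC was also counted in transcripts that GENCODE release 29 lists for the 4 hosts, an analysis added after the list was seen. It was read on the RNA strand, in the longest transcript of each noncoding host and in 2 transcripts of VMP1. MIR31HG-201, from a locus without m6A regions, held 5 GGAC in 745 nt, or 6.71 per kb. MIR22HG-208, from the locus with the densest regions, held 7 in 2626 nt, or 2.67 per kb. MIR155HG-201 held 1 in 1600 nt, or 0.625 per kb. The coding transcript VMP1-201 held 6 in 2712 nt, or 2.21 per kb. Over 159029 transcripts of at least 500 nt, 95.8% held the motif, the median was 3.90 per kb, and 17.8% had at least the value of MIR31HG-201 against 72.0% for MIR22HG-208. The order of the transcripts depends on the motif. For the longer motif GGACT, MIR31HG-201 and MIR22HG-208 held 0, and MIR155HG-201 and VMP1-201 held 1 each. These counts describe single transcripts, and the full sequence of the loci, introns included, was not used here.

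The transcript VMP1-216, which runs unspliced through the miR-21 hairpin, held 4 GGAC in 4325 nt, or 0.925 per kb. It held 3 GGACT, or 0.694 per kb, the most of the transcripts counted here. Of the 4 GGAC, 3 stood in the 3335 nt before the hairpin, 0 in it and 1 in the 918 nt after it. The 2 sites nearest to the hairpin are shown as DNA with the motif in capitals; the first ends 1292 nt before the hairpin and the second starts 259 nt after it.
VMP1-216 before: taaattgggaGGACtccaagccgg
VMP1-216 after: tttttttcagGGACttttctagct
Positions in this transcript were not matched to those of the m6A regions, since no sequence in hg19 was used.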
